A study of Homo sapiens with 58 samples.

Results

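Near-complete depletion of the transcription factor SOX9 was compared with the undepleted state in cranial neural crest cells (CNCCs), the embryonic cells that form most of the facial skeleton, which here came from H9 human embryonic stem cells, a long-established line. ATAC-seq, in which Tn5 transposase inserts adapters into open chromatin, was counted over 151,457 regulatory elements (REs) in 14 of the 58 samples of the series. In all 14 samples the endogenous SOX9 protein carried an FKBP12-F36V, mNeonGreen and V5 tag, and passage 4 cells grew in medium with BMP2 and the WNT agonist CHIR-99021. The 7 treated samples received 500 nM dTAGV-1, which recruits a ubiquitin ligase to the tag, for 48 h and keep 0.95% of SOX9 according to the labels. The 7 control samples received DMSO vehicle (0 nM) for 48 h and are set at 100%. Members were chosen by sample title, and each treated sample was paired with the control of the same clone and differentiation. Clone S9CC13 gave 4 pairs and clone S9CC47 gave 3 pairs, in 6 differentiation batches. Only batch R6 held both clones, so clone and batch cannot be told apart elsewhere. Untagged wild-type (WT) cells at 500 and 0 nM for 48 h, and tagged cells at 3 h and 24 h, with 2 differentiations each, were used for side-by-side values alone. For differentiation R5 of the time course the count table names clone S9CC47 and the sample titles S9CC13, so its clone is not certain. The assay does not measure SOX9 protein, so these counts do not check the depletion.

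SOX9 belongs to the SOX family, whose HMG domain binds the minor groove of short ACAAT-like sites and bends the DNA. SOX9 and its close relatives SOX8 and SOX10 can bind as dimers to a pair of such sites that face each other. SOX9 is required for cartilage, acts in neural crest formation and migration, and loss of its enhancers is linked to Pierre Robin sequence, a disorder of the lower jaw.

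The sequences below show the kinds of sites found in the REs that changed most, as windows of 61 bases on the plus strand of hg38. In the first 3, capitals mark ACAAT and ATTGT facing each other with 5 bases between, in the REs holding such a pair with the largest decreases. OR6B3, an olfactory receptor gene, holds the first in an intron (chr2:240051960-240052020), FAAH2 the second in an intron (chrX:57422180-57422240), and the third lies in an intron of TRPM3 with KLF9 as nearest start (chr9:70573463-70573523).
OR6B3 element: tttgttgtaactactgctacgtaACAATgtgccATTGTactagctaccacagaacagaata
FAAH2 element: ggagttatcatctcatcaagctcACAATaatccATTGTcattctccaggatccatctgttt
KLF9 element: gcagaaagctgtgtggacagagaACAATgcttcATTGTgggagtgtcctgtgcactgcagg
These REs changed by log2 -4.80, -3.57 and -3.43, with SE 0.27, 0.22 and 0.18.

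In the next 3 windows the facing sites stand 6 bases apart, again in the REs of that kind with the largest decreases. The first 2 lie in introns of SGCD (chr5:156093172-156093232) and STEAP1B (chr7:22478194-22478254). The last lies in an RE of EPHB3, an ephrin receptor gene (chr3:184579071-184579131). That RE is 17,067 bp from the nearest coding start and within 1,000 bp of another annotated EPHB3 transcript start.
SGCD element: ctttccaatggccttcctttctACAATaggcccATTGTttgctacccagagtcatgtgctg
STEAP1B element: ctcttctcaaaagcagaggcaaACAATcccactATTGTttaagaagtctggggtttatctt
EPHB3 element: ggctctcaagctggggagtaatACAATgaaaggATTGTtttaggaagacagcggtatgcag
Their log2 changes were -4.40 (SE 0.24), -4.30 (SE 0.18) and -4.17 (SE 0.15). Other strongly decreased REs held a single ACAATG core, in capitals in the next 2 windows as read on either strand, in introns of ADAMTSL1 (chr9:18268527-18268587) and DIAPH1 (chr5:141521408-141521468).
ADAMTSL1 element: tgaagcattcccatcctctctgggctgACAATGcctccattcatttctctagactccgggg
DIAPH1 element: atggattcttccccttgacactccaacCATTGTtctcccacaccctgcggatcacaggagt
The ADAMTSL1 RE changed by -4.85 (SE 0.19), and the DIAPH1 RE is described further on.

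Among REs that gained accessibility, other letters are shown. Capitals mark TAATTA, a core read by many homeodomain factors, near INTS6L (chrX:135489786-135489846) and in an intron of SORCS1 (chr10:106957609-106957669), and TGANTCA, the AP-1 site, near MKI67 (chr10:128326155-128326215).
INTS6L element: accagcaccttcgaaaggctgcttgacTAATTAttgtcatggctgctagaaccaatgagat
SORCS1 element: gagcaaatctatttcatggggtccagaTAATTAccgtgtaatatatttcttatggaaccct
MKI67 element: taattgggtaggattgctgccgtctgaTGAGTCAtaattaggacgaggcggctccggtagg
The MKI67 window also holds TAATTA, left in small letters. Among the largest increases described further on, no RE but that near MKI67 held TGANTCA. The decreased REs nearest to DIAPH1, TPST1, SLC30A5 and SPATS2L held it too. A match is a description of the letters and was not tested as a binding site.

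Large decreases in accessibility were far more frequent than large increases, while the median sizes were closer. Which direction was the more frequent among all called REs depended on the scaling. At an edgeR adjusted p-value under 0.05, 36,546 REs (24.1% of those tested) differed, 21,114 of them lower (13.9%) and 15,432 higher (10.2%). Scaled by total counts alone, 19,158 were lower and 19,625 higher. The decrease reached at least 1 on the log2 scale in 5,873 REs, or 27.8% of the lower REs. The increase did so in 921 REs, or 5.97% of the higher REs. At 2 log2 or more the counts were 1,578 lower and 9 higher. At 3 log2 or more 386 REs were lower and 0 higher. The median change was -0.66 among lower and 0.55 among higher REs, beside 0.02 over all REs. All 7 pairs moved the same way for 16,577 lower REs (78.5%) and 10,954 higher REs (71.0%). For 5,126 of the 21,114 lower and 1,033 of the 15,432 higher REs the control and treated samples did not overlap at all. Overlap was counted among called REs alone, and the share free of it over all REs was not computed.

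Seen as shares of each library, lower REs held 17.3% ± 2.38 (SD, n = 7) of counts at 0 nM and 11.3% ± 1.36 at 500 nM, with every 500 nM value under 13.5%. Higher REs went from 9.40% ± 0.613 to 12.4% ± 0.492, from at most 10.1% without dTAGV-1 to at least 11.5% with it. These shares describe REs picked by the same comparison. Pair by pair, the median change ran from -0.59 to -0.79 over lower REs and from 0.44 to 0.59 over higher REs. These REs were called from the same 7 pairs, so a matching sign in each pair partly follows from the selection. The S9CC13 pairs alone called 30,317 REs and the S9CC47 pairs alone 29,238, with 54.6% and 65.0% of them lower. In such bulk samples fewer cells with an open RE and less opening per cell cannot be told apart.

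Totals in REs ran from 22.9 to 64.8 M counts per sample and the median RE held 51 to 170 counts. The mean total was 45.6 ± 8.84 M at 0 nM and 38.7 ± 13.8 M at 500 nM (SD, n = 7), a difference of -6.94 M that was not significant in an exact two-sided sign-flip permutation test (p = 0.141). With all libraries thinned to the lowest total, 32,603 REs differed. Promoter REs of 15 cranial neural crest marker genes summed to 740 to 981 CPM (counts scaled to library size) at 0 nM and 769 to 980 CPM at 500 nM, and each of the 15 genes had such an RE. Endoderm, blood and epidermis markers summed to 36.2 to 47.6 and 39.7 to 49.5 CPM, with 9 of 14 genes lacking a promoter RE. Pluripotent cell markers summed to 202 to 281 and 176 to 242 CPM and neuroepithelial markers to 130 to 210 and 151 to 219 CPM. Of 15 promoter REs of pluripotent cell genes 3 were lower and 0 higher, and of 33 of crest genes 2 were lower and 3 higher. Neuroepithelial genes had 0 lower and 1 higher of 23, and endoderm, blood and epidermis genes 0 and 1 of 7. Over all promoter REs 8.76% were lower and 6.42% higher. The part of the cell mixture in the results was not tested.

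The largest losses took open REs almost to the floor of the assay. Of 14 such REs described here, the one with the greatest change was intergenic, 45,079 bp from the start of AGPAT4, an acyltransferase gene of phospholipid synthesis (chr6:161319140-161319640). Its accessibility in CPM ran from 12.7 to 32.6 with a median of 15.9 at 0 nM, and from 0.313 to 0.73 with a median of 0.564 at 500 nM. The groups were far apart, and the log2 change was -5.28 (SE 0.16, adjusted p = 2.02e-17). An RE within 1,000 bp of an annotated transcript start inside POLR2F, 9,675 bp from the nearest start of the glial and melanocyte factor SOX10, ran from 3.46 to 16.8 CPM (median 15.0) at 0 nM and from 0.139 to 0.462 CPM (median 0.31) at 500 nM. That is a log2 change of -5.16 (SE 0.22), with no overlap between groups. At 0 nM the values differed by batch. They were 3.46 to 7.67 CPM in R10, R13 and R14, and 15.0 to 16.8 CPM in R5, R6 and R8. The RE in an intron of DIAPH1, which encodes an actin-nucleating formin, went from 7.05 to 32.6 CPM (median 26.2) to between 0.374 and 1.39 CPM (median 0.534). An intronic RE of the actin crosslinker ACTN4, nearest to CAPN12, went from 14.6 to 37.2 CPM (median 28.4) to between 0.469 and 1.18 CPM (median 0.884). Their log2 changes were -5.06 (SE 0.19) and -5.00 (SE 0.14).

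A promoter RE of PLEKHB1, a pleckstrin homology protein gene, lay 3,234 bp from the nearest coding start and was the most open of these 14 REs at 0 nM. It ran from 25.9 to 59.8 CPM (median 46.4) without and from 1.28 to 2.29 CPM (median 1.59) with dTAGV-1, a log2 change of -4.66 (SE 0.12). The other 9 REs lay nearest to TPST1, SLC30A5, ADAMTSL1, PELO, OR6B3, RASL11B, SPATS2L, CRH and GMPR. Groups were free of overlap at all 14, beside 5,126 of all 21,114 lower REs. These REs were picked by their change in the same samples, so the separation largely follows from the selection. The same limit applies to the named increases, promoter REs and loci below. Mean levels went from between 7.48 and 43.7 CPM to between 0.291 and 1.72 CPM, and 10 of the 14 REs held at least 1 SOX core. Of the 14, 7 were within introns of coding genes and 3 were intergenic. The distance to the nearest coding start ran from 1,326 to 205,261 bp with a median of 20,721.5 bp.

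**Figure D1:**
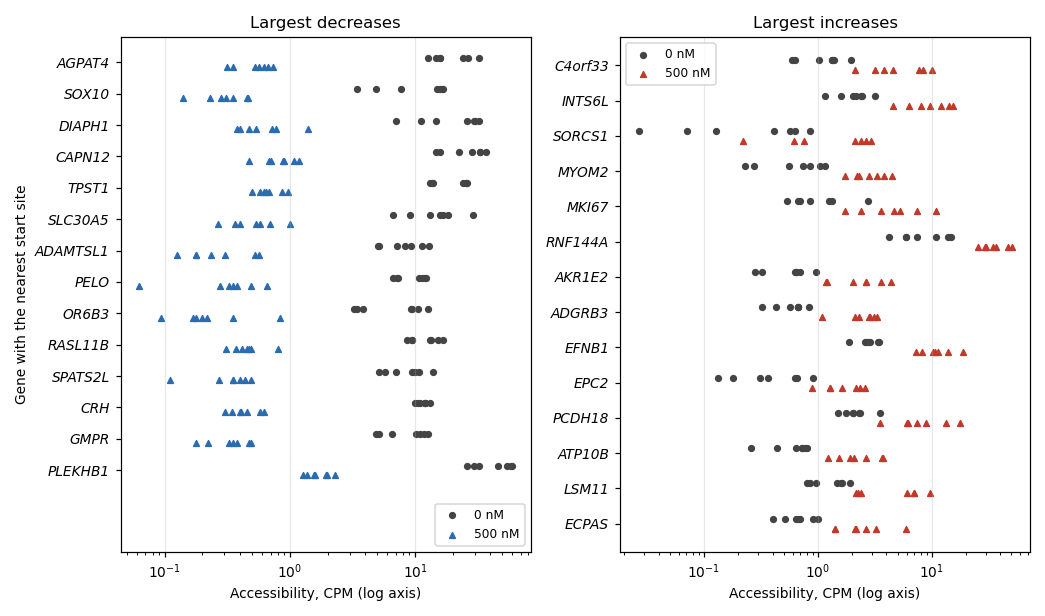
Accessibility in CPM on a log axis for the 14 REs described with the largest decreases and the 14 with the largest increases, one row per RE labelled by the gene with the nearest start, with the 7 samples at 0 nM as circles and the 7 at 500 nM as triangles. Among decreases no circle overlaps a triangle in any of 14 rows, while among increases the groups are free of overlap in 11 of 14 rows and the shift is smaller. The REs were picked by their change in these samples.

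The same 14 REs were followed in other samples, for which no test was made. In tagged cells all 14 were already lower after 3 h in both differentiations, with log2 ratios from -4.51 to -2.59 and a median of -3.40. At 24 h the ratios ran from -5.70 to -3.40 with a median of -4.34. In WT cells, which lack the tag, 500 nM for 48 h gave ratios from 0.05 to 0.71 in both differentiations for all 14 REs. The WT ratio over all REs is not given beside them. The RE near AGPAT4 had -3.39 and -2.98 at 3 h, and 0.24 and 0.08 in WT cells.

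Increases were smaller and began from low levels. Of the 14 described here, the strongest was an intergenic RE 1,505,900 bp from C4orf33 (chr4:130602070-130602570), which ran from 0.591 to 1.95 CPM (median 1.33) at 0 nM and from 2.12 to 10.0 CPM (median 4.54) at 500 nM. The groups did not overlap and the log2 change was 2.21 (SE 0.15). An intergenic RE near INTS6L (chrX:135489486-135489986) ran from 1.14 to 3.20 CPM (median 2.15) and then from 4.53 to 15.4 CPM (median 9.63), a change of 2.19 (SE 0.11). The most open of them was an RE in an intron of RNF144A, a ubiquitin ligase gene, with 4.21 to 14.8 CPM (median 7.40) at 0 nM and 25.5 to 50.0 CPM (median 34.2) at 500 nM. It changed by 2.09 (SE 0.14), and these groups too were separate.

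The other 11 increases lay nearest to SORCS1, MYOM2, MKI67, AKR1E2, ADGRB3, EFNB1, EPC2, PCDH18, ATP10B, LSM11 and ECPAS. Mean levels over the 14 went from between 0.385 and 9.03 CPM to between 1.66 and 36.0 CPM. Groups did not overlap in 11, the exceptions being SORCS1, MKI67 and EPC2. A SOX core was in 2 of the 14, the median distance to a coding start was 98,333.5 bp, and 8 were intergenic. Over REs of the most common width, a SOX core was in 21.2% of all and 19.8% of higher REs. Whether 2 of 14 differs from these shares was not tested. In the tagged time course all 14 were higher in both differentiations at 24 h, with ratios from 0.06 to 2.15. At 3 h 7 were higher and 3 lower in both differentiations. In WT cells at 48 h the ratios ran from -0.44 to 0.55, with 2 higher and 3 lower in both differentiations.

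Promoter REs also changed, with far larger losses than gains among the 10 described each way. After the SOX10-proximal and PLEKHB1 REs, the next promoter losses among the 10 described were at TTLL4, a tubulin glutamylase gene (log2 -4.65, SE 0.18), and NT5DC3 (-4.60, SE 0.23). These REs lay 757 and 38,410 bp from the nearest coding start. TTLL4 went from 6.88 to 15.4 CPM (median 11.0) to between 0.281 and 0.78 CPM (median 0.438). EPHB3 went from 12.9 to 31.9 CPM (median 24.2) to between 0.839 and 1.88 CPM (median 1.05). Groups did not overlap at these or at any of the 10, which were picked by their change in the same samples. The 10 ended between 0.271 and 1.72 CPM on average. Their median distance to a coding start was 16,404.5 bp, because starts of noncoding transcripts and every transcript of a gene define a promoter RE here.

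The largest promoter gains of the 10 described were at VPS13C (1.74, SE 0.13), ASIP, an antagonist of the melanocortin receptor (1.43, SE 0.13), and CRYAB, a small heat shock protein (1.39, SE 0.11). CRYAB ran from 1.95 to 7.21 CPM (median 4.02) at 0 nM and from 5.41 to 17.6 CPM (median 9.73) at 500 nM, so that its groups overlapped although all 7 pairs rose. Only 3 of the 10 largest promoter increases were free of overlap. All 10 were higher at 24 h in both differentiations.

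Changed REs were placed mostly away from promoters. Of 37,377 promoter REs 8.76% were lower and 6.42% higher, against 15.6% and 11.4% of 114,080 other REs. Introns of coding genes had the largest share of lower REs, 16.5% of 50,525, with 11.0% higher. Intergenic REs were lower in 14.8% and higher in 11.5% of 43,182. Coding exons, with 10.6% lower of 1,321, were closer to promoters, and untranslated exons, with 15.5% lower and 8.01% higher of 2,735, to introns. Within promoters, starts of coding genes were lower in 7.35% of REs, and REs at starts of noncoding transcripts alone in 14.1%.

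Distance separated the directions. Within 1 kb of a coding start 6.01% of REs were lower and 5.63% higher. Between 50 and 100 kb the shares were 16.3% and 11.6%. Beyond 500 kb, 12.9% were lower and 16.7% higher, the only bin in which gains outnumbered losses under the main scaling. Shares by place, distance and other properties were read under that scaling alone. Which direction prevails in a class may differ when scaled by total counts. The median distance was 38,340 bp for lower, 52,036.5 bp for higher and 28,434 bp for all REs.

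**Figure D2:**
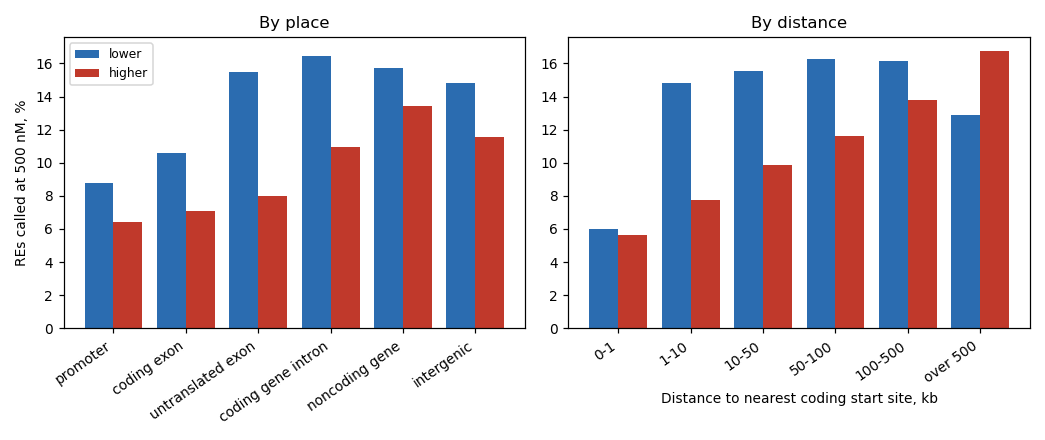
Percentage of REs called lower and higher at 500 nM, by place in the annotation and by distance to the nearest coding start in kb. Under the main scaling, lower REs exceed higher REs in each class of place, from 8.76% against 6.42% at promoters to 16.5% against 11.0% in introns. Beyond 500 kb the order turns to 12.9% against 16.7%.

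As a share of each library, promoter REs rose from 52.3% ± 4.19 of counts at 0 nM to 54.1% ± 3.35 at 500 nM (SD, n = 7). The paired difference was 1.79 ± 1.52 percentage points, higher in 6 of 7 pairs, with p = 0.03125 in an exact two-sided sign-flip permutation test. Leaving out each pair in turn gave 1.45 to 2.17 points. Without any 1 of the S9CC13 R10, R14 and R6 or the S9CC47 R5, R6 and R8 pairs the exact permutation p was 0.0625, the smallest that 6 pairs can give when 1 goes the other way. The unpaired exact permutation test gave p = 0.387.

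Other properties of the REs moved with the direction of change. Ranked by level in untreated WT cells, which did not enter the comparison, REs of decile 1 (median 0.714 CPM) were lower in 2.08% and higher in 19.9% of cases. In decile 9 (median 11.5 CPM) the shares were 24.1% and 7.53%. Counting precision differs between these deciles too. The REs were peaks called across samples, depleted ones included, so an RE closed in WT cells could enter through samples where it was open. The part of both in the shares was not tested. Higher REs had a median GC content of 44.3%, lower REs 48.1% and REs not called 48.7%. In quintile 1 of GC content, up to 41.1%, 12.1% of REs were lower and 15.4% higher. In quintile 4 these shares were 17.3% and 6.08%. These shares come from the fit without a GC correction. With each pair fitted as a block, 25,405 REs were lower and 20,997 higher without such a correction. With it, 25,222 were lower and 23,605 higher. The part of library GC bias in the shares was not tested. By chromosome, lower REs ran from 8.17% on chromosome 19 to 17.8% on chromosome 22, and higher REs from 4.60% on chromosome 22 to 13.5% on chromosome 4.

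Neighbouring REs moved together. For RE pairs under 2 kb apart, the log2 changes had a Spearman rho of 0.44 over 31,823 pairs, which share reads of the same libraries. The next RE was lower in 45.9% of cases after a lower RE, against 15.0% of all such pairs, and higher in 28.4% after a higher RE, against 8.33%. Beyond 50 kb rho was 0.06. The longest unbroken run of lower REs held 17 REs over 66,491 bp near CCDC88C, a regulator of WNT signalling (chr14:91352713-91419203), with a median change of -0.76. Runs of 14 lower REs near SEPTIN9, 13 near CUEDC1, 12 near SRP14 and BMF, 12 near BAK1 and ITPR3, and 11 near the potassium channel genes KCNK5 and KCNK17 followed. Runs of higher REs were shorter, with 7 at MSX1 (chr4:4852513-4867890, median 0.61), 7 near the neurexophilin gene NXPH1 (median 1.07) and 6 each at NRP1, GPC5, and BMP4 with CDKN3, among others.

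The letters of the REs differed by direction too. Motifs were searched on both strands in the 123,778 REs of 501 bases. The SOX core ACAATG was in 21.2% of all these REs, in 29.6% of lower REs, in 49.3% of those lower by at least 2 log2 and in 19.8% of higher REs. TGANTCA was in 15.5% of all, 13.8% of lower, 16.5% of those lower by at least 2 log2 and 26.6% of higher REs. The homeodomain core TAATTA was in 13.6% of all, 11.9% of lower, 14.4% of those lower by at least 2 log2, 21.7% of higher and 33.0% of REs higher by at least 1 log2. CAGATG, an E-box read by bHLH factors such as TWIST1, was in 42.1% of all, 51.5% of lower, 46.7% of those lower by at least 2 log2 and 42.6% of higher REs. GGAATG, the TEAD site, was in 30.9%, 34.8%, 30.9% and 31.4% of these sets. The low GC content of higher REs given above moves with TAATTA, and the part of base composition in these shares was not tested.

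Pairs of facing ACAAT and ATTGT sites stood out by their spacing. With 6 bases between, 123 REs held such a pair, of which 75 (61.0%) were lower and 3 higher, beside 13.4% lower among all REs of this width. With 5 bases between, 44 of 102 REs (43.1%) were lower and 7 higher. With 7 bases between, 20 of 62 were lower. The lower REs with these pairs had median changes of -1.79, -1.87 and -1.53, against -0.66 over all lower REs. Those with 6 bases between held the pair 39 bases from the RE centre at the median, and REs that were not called held it 186 bases away. Among REs lower by at least 2 log2, facing pairs were in 2.25% at 6 and in 1.59% at 5 bases, and in 0.0725% at each spacing from 0 to 4. The back-to-back order reached 0.217% at most in that set.

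**Figure D3:**
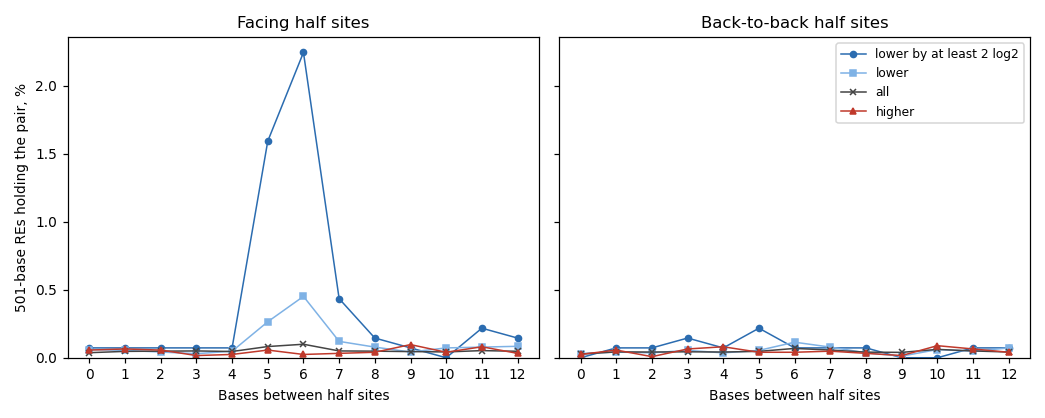
Percentage of 501-base REs that hold a pair of short SOX sites, by the number of bases between them, for facing and back-to-back orders, in REs lower by at least 2 log2, all lower REs, all REs and higher REs. Facing pairs peak at 6 bases (2.25%) and 5 bases (1.59%) in the strongest losses, while the back-to-back order stays at or under 0.217%.

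To compare gene loci, counts were summed over the REs nearest to each protein-coding start, which labels a place and does not show a target. Of 17,655 loci 4,656 (26.4%) differed, with 2,690 lower (15.2%) and 1,966 higher (11.1%). Scaled by total counts alone the split turned to 2,230 lower and 3,323 higher, and which direction prevails over loci thus depends on the scaling. With the pair as block, 3,422 were lower and 3,014 higher. Losses reached 1 log2 in 92 loci and gains in 1. Of 9,884 loci with any changed RE, 3,808 had REs in both directions, 3,592 lower REs alone and 2,484 higher REs alone.

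The largest locus losses exceeded 1 log2. Among 14 such loci described here, PAQR6, a progestin receptor family gene, changed by -2.24 (SE 0.10), with all 3 REs lower. It went from 16.3 to 38.3 CPM (median 20.0) at 0 nM to between 3.76 and 6.20 CPM (median 4.89) at 500 nM. SLC6A11, a GABA transporter gene, went from 16.9 to 53.5 CPM (median 37.3) to between 7.45 and 10.0 CPM (median 9.56), a change of -1.89 (SE 0.14). UCMA, which encodes a matrix protein of cartilage, went from 15.0 to 38.2 CPM (median 25.2) to between 4.85 and 9.91 CPM (median 6.86). Its change was -1.73 (SE 0.09), and the 0 and 500 nM samples did not overlap at any of these loci.

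GFRA3, the receptor for artemin on sensory neurons and glial precursors, went from 40.2 to 72.1 CPM (median 58.7) to between 15.8 and 19.1 CPM (median 16.9), a change of -1.70 (SE 0.09). KL, which encodes klotho, the coreceptor of FGF23, changed by -1.42 (SE 0.05) with 45.0 to 74.8 CPM before and 20.0 to 25.1 CPM after. KCNK5, a potassium channel gene, had the most lower REs among these 14 losses, 10 of 11. It went from 136 to 196 CPM (median 185) to between 62.8 and 75.0 CPM (median 67.1), a change of -1.34 (SE 0.06). The other 8 were OR6B3, ART4, TTYH1, MRGPRX3, CLCA1, PLEKHB1, ERP27 and BPI, with changes from -2.18 to -1.31 and separate groups at each.

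Locus gains were modest. Among loci with at least 3 REs, at least 5 CPM and a rise in all 7 pairs, the largest gain was at GBP5, an interferon-induced guanylate-binding protein gene, from 8.23 to 12.98 CPM (median 11.0) to between 14.5 and 30.3 CPM (median 16.4), a change of 0.87 (SE 0.08) with separate groups. CRYAB changed by 0.76 (SE 0.10), CHST8, a sulfotransferase gene, by 0.68 (SE 0.15), and IL6, a cytokine gene, by 0.55 (SE 0.08). IL6 ran from 8.49 to 11.9 CPM (median 11.3) and from 12.5 to 18.7 CPM (median 16.3). ABHD12, a lipid hydrolase gene, ran from 24.7 to 32.5 CPM and from 37.7 to 47.4 CPM, a change of 0.53 (SE 0.05). Groups were separate at GBP5, IL6 and ABHD12 and overlapped at the other 11 of 14 gains described, among them GOLGA8M, SLCO1B1 and MAP7D2.

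Counting REs rather than summing them named other loci. PREX1, a RAC exchange factor gene, had 38 lower REs of 81, SULF2, a heparan sulfate sulfatase gene, 33 of 67, ADGRD1 30 of 53, the transcription factor gene MYCN 30 of 70 and MN1 30 of 95. As sums these loci changed by -0.47, -0.56, -0.51, -0.38 and -0.20, all past the threshold and lower in all 7 pairs, with overlapping groups. The locus with the largest count of higher REs was SOX9 itself, with 36 of 71, followed by GPC5 with 25 of 129, ADGRL3 with 24 of 106, PDE4D with 21 of 96 and STIM2 with 20 of 71. As sums SOX9 (0.28, SE 0.05) and PDE4D (0.11, SE 0.04) rose, whereas GPC5, ADGRL3 and STIM2 had values of 0.00, 0.05 and 0.00 that did not pass the test, and these loci also held 12, 7 and 7 lower REs.

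Loci of genes with known roles in SOX9 biology and crest fates were then read from 12 lists, beside a median of 0.01 over all loci and the 15.2% lower and 11.1% higher. In the SOX family 6 of 11 loci were lower and 1 higher, with a list median of -0.19. SOX10 fell from 17.9 to 35.2 CPM (median 32.3) to between 13.6 and 17.4 CPM (median 14.6), a change of -0.90 (SE 0.10). SOX6 and SOX5, partners of SOX9 in cartilage, changed by -0.41 (SE 0.05) and -0.29 (SE 0.05), with 24 of 68 and 19 of 63 REs lower. Over REs within 50 kb of the start, SOX6 had 0.02 and did not pass the test. SOX4, SOX13 and SOX2 changed by -0.36, -0.28 and -0.19. The loci of the close relative SOX8 (-0.13) and of SOX11 (-0.12) did not pass the test. SOX11 was lower in all 7 pairs and was called in the fit with the pair as block (adjusted p = 0.00315).

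Cartilage matrix genes had 9 of 16 loci lower and 1 higher, with a median of -0.21, and 23.7% of their 131 REs lower. CHADL, a chondroadherin-like gene, went from 13.9 to 25.0 CPM (median 17.8) to between 5.79 and 7.35 CPM (median 6.38). Its change was -1.52 (SE 0.08), and with promoter REs left out the value was 0.33 and did not pass the test. COL9A2 went from 55.6 to 79.5 CPM (median 66.2) to between 30.1 and 47.2 CPM (median 36.0), a change of -0.86 (SE 0.07). COL2A1, the main cartilage collagen and a classic SOX9 target, went from 225 to 312 CPM (median 243) to between 154 and 210 CPM (median 171), a change of -0.56 (SE 0.06) with 6 of 9 REs lower. MATN4, CNMD, COL9A3 and SNORC changed by -0.67, -0.62, -0.61 and -0.58, and at all these loci the groups were separate. HAPLN1 (-0.21) and MATN3 (-0.20) changed less, COMP rose by 0.17 (SE 0.05), and aggrecan (ACAN, 0.08) and COL11A1 (-0.05) did not pass the test.

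Genes that make chondroitin sulfate, the glycan of cartilage proteoglycans, had 4 of 19 loci lower and 1 higher. CHSY1, a chain polymerase, went from 126 to 196 CPM (median 146) to between 88.6 and 119 CPM (median 100), a change of -0.56 (SE 0.05) with 10 of 22 REs lower. XYLT1, which starts the chain, changed by -0.27 (SE 0.04) and had 0.01 within 50 kb of its start, which did not pass the test. With the pair as block 7 loci of this list were lower and 1 higher. The list median of -0.01 lay near that of all loci.

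**Figure D4:**
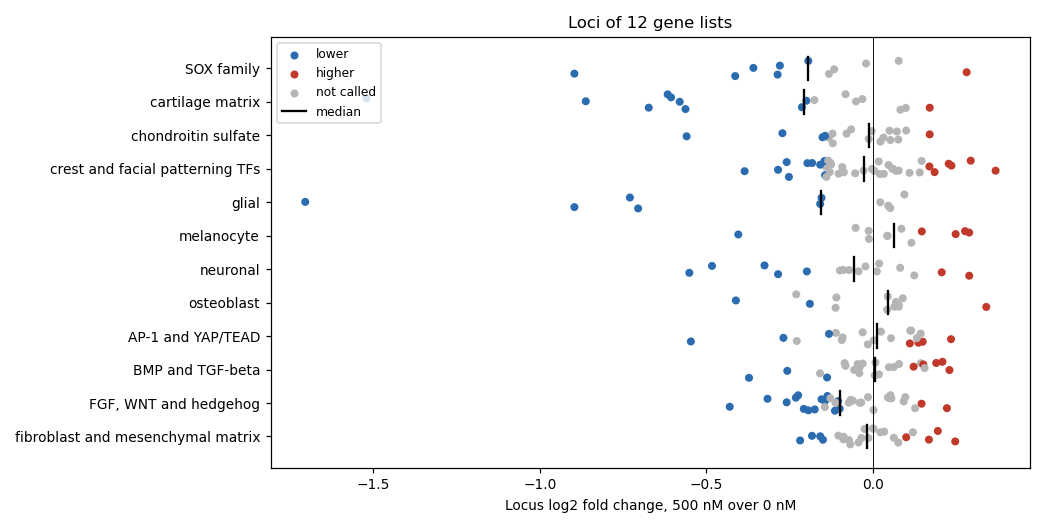
Log2 fold change at 500 nM over 0 nM of each measured locus in 12 gene lists, with points for loci coloured by lower, higher or not called and a black bar at each list median. The glial and cartilage lists reach furthest to the left, with GFRA3 at -1.70 and CHADL at -1.52, while medians lie between -0.21 and 0.06.

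Among 39 transcription factors of the crest and of facial patterning 9 loci were lower and 6 higher, a median of -0.03. With the pair as block these counts were 17 and 9. The lower side was led by PAX7, a marker of premigratory crest, which went from 252 to 346 CPM (median 291) to between 187 and 276 CPM (median 233), a change of -0.39 (SE 0.04) with 12 of 30 REs lower and 0 higher. FOXC1, FOXD3 and FOXF1 changed by -0.29, -0.26 and -0.25, and ALX4 and SIX2 by -0.20 and -0.18. The higher side was led by MSX1, a homeobox gene of jaw and tooth development, with 319 to 502 CPM (median 352) at 0 nM and 429 to 598 CPM (median 468) at 500 nM. It changed by 0.37 (SE 0.06), with overlapping groups and a rise in all 7 pairs. PRRX2 (0.29, SE 0.09), DLX2 (0.24, SE 0.08), HAND2 (0.23, SE 0.04), FOXF2 and PAX9 also rose. TFAP2A (-0.09), TWIST1 (0.05), NR2F1 (0.06) and NR2F2 (-0.14) did not pass the test, although NR2F2 held 27 lower and 9 higher REs of 98 and NR2F1 3 lower and 19 higher of 86. TFAP2A and NR2F2 were lower in all 7 pairs, and with the pair as block both were called, at adjusted p-values of 0.0226 and 0.00183.

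Loci of fates open to crest cells were read from separate lists. Of 10 glial loci 6 were lower and 0 higher, and with the pair as block 6 and 1. Beside GFRA3 and SOX10, described above, S100B, a glial calcium-binding protein, changed by -0.73 (SE 0.10) and ERBB3, the neuregulin receptor, by -0.71 (SE 0.06). ERBB3 went from 48.5 to 67.1 CPM (median 53.8) to between 28.5 and 37.2 CPM (median 35.3), with separate groups. GFAP (-0.15) and CNP (-0.16) were lower by less, and the myelin gene PMP22 (0.02) did not pass the test. With promoter REs left out GFAP had 0.02 and did not pass the test. Of 12 melanocyte loci 1 was lower, that of tyrosinase (TYR, -0.40), and 4 were higher. These were SLC45A2 (0.29), DCT (0.28), KIT (0.25) and MLANA (0.15). DCT had -0.08 within 50 kb of its start, without passing the test, and MITF, the melanocyte master regulator, had -0.01.

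Of 16 measured neuronal loci 5 were lower and 2 higher. The noradrenaline enzyme gene DBH changed by -0.55 (SE 0.05), the sensory factor NEUROG1 by -0.48 (SE 0.07) and tyrosine hydroxylase (TH) by -0.29 (SE 0.05). GATA3 (0.29, SE 0.05) and STMN2 (0.21, SE 0.04) rose, although STMN2 had -0.06 within 50 kb of its start and did not pass the test there. NEUROG1 had separate groups, from 38.4 to 51.8 CPM and from 25.9 to 37.0 CPM. Of 13 osteoblast loci 2 were lower, RUNX3 (-0.41, SE 0.05) and RUNX1 (-0.19, SE 0.04), and 1 higher, BGLAP (0.34, SE 0.09), while RUNX2 (0.04) and COL1A1 (0.06) did not pass the test. In the lists that mark other cell types, 4 of 10 pluripotent cell loci were lower and 1 higher, 4 of 10 neuroepithelial loci lower and 1 higher, and 4 of 14 endoderm, blood and epidermis loci lower and 1 higher. The hepatic and gut factor HNF4A had the largest of these changes, -1.05 (SE 0.07), and the part of such cells in the results was not tested.

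Signalling genes were read from separate lists. Of 33 FGF, WNT and hedgehog loci 14 were lower and 2 higher, with a median of -0.10. FGF1 changed by -0.43 (SE 0.05), TCF7L2, a nuclear effector of WNT, by -0.32 (SE 0.05), FGFR3 by -0.26 (SE 0.05) and the WNT feedback gene AXIN2 by -0.21 (SE 0.05). FGF1 went from 217 to 337 CPM (median 305) to between 160 and 240 CPM (median 212), with overlapping groups. The WNT antagonist DKK1 (0.22, SE 0.04) and GLI1 (0.15, SE 0.04), a hedgehog effector, rose. Of 24 measured BMP and TGF-beta loci 3 were lower, led by BMP7 (-0.37, SE 0.05) with 22 of 58 REs lower, and 5 higher, among them BMP5 (0.23), ID2 (0.21) and SMAD7 (0.19).

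In the AP-1 and YAP/TEAD list 3 of 20 loci were lower and 4 higher, and with the pair as block 5 and 7. WWTR1, which encodes the coactivator TAZ, went from 186 to 295 CPM (median 256) to between 144 and 185 CPM (median 161), with separate groups and a change of -0.55 (SE 0.06). TEAD1 (-0.27) and CCN2 (-0.13) were lower as well. The AP-1 members ATF3 (0.23, SE 0.04), JUND (0.15) and JUN (0.11) rose, and FOS (0.00) did not pass the test. Of 24 fibroblast and mesenchymal matrix loci 4 were lower, led by LOXL1 (-0.22), and 4 higher, led by the collagen crosslinker LOX (0.25, SE 0.05). THBS1, at -0.18, was at 0.14 within 50 kb of its start, where it did not pass the test.

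At the SOX9 locus the gains were spread over both sides of the gene. Summed, it ran from 398 to 605 CPM (median 467) at 0 nM and from 482 to 724 CPM (median 564) at 500 nM, with overlapping groups and a rise in all 7 pairs. Of 25 REs more than 200 kb upstream 13 were higher and 0 lower, of 14 within 200 kb upstream 8 were higher and 0 lower, and of 32 downstream 15 were higher and 1 lower. Medians over the REs of these stretches were 0.34, 0.26 and 0.30. The RE at the promoter, at -0.43 kb, went from 43.5 to 48.7 CPM on average, a change of 0.16 (SE 0.05). The largest SOX9 gain, 1.56 (SE 0.23), lay at -220.0 kb from the start at a low level, from 0.523 to 1.57 CPM. The lone decrease, -0.73 (SE 0.10), lay 64.7 kb downstream.

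At MSX1, 16 of 28 REs upstream and 3 of 8 downstream were higher, and 1 on each side lower. The most open, at -96.1 kb from the start, went from 55.6 to 64.7 CPM (0.22, SE 0.06), and the RE 7.82 kb downstream, at the end of the run of 7, from 43.6 to 69.9 CPM (0.74, SE 0.08). In WT cells the summed SOX9 locus had log2 ratios of -0.03 and -0.05, without a test.

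**Figure D5:**
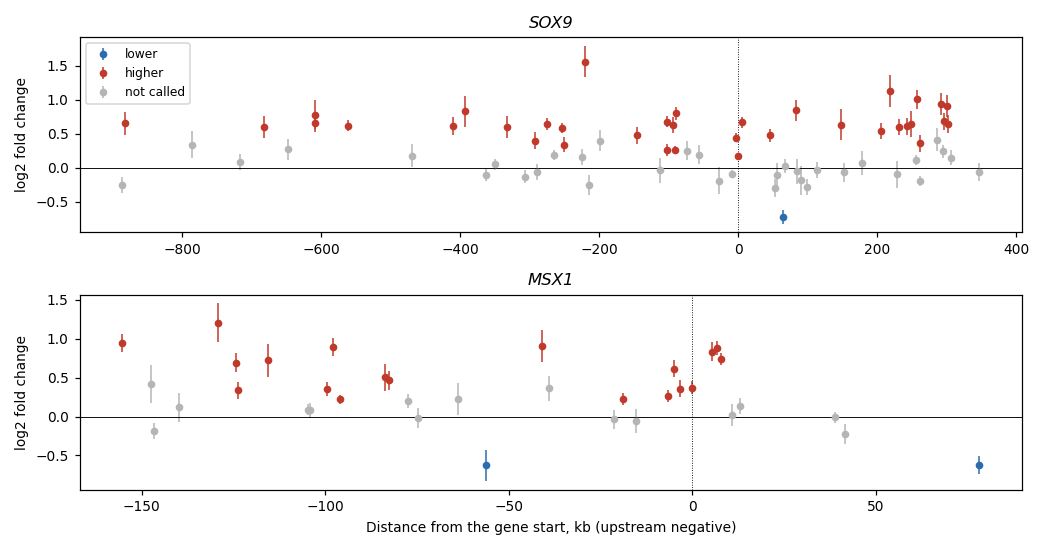
Log2 fold change at 500 nM over 0 nM of each RE of the SOX9 and MSX1 loci against its distance from the gene start in kb, with upstream negative, bars for 1 SE, and colours for lower, higher and not called REs. At SOX9 36 of 71 and at MSX1 19 of 36 REs are higher, on both sides of the start.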

How the data were processed

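ATAC-seq read counts per RE were deposited by the authors as 1 table of 58 samples, unnormalized. Per the labels and the study's methods, reads were trimmed with skewer, aligned to hg38 with Bowtie2 2.4.1, filtered with SAMtools 1.10 and counted over REs from MACS2 2.2.7.1 peaks. From these counts, the 14 samples were fitted with edgeR 4.0.16 (R 4.3.3) by its quasi-likelihood F test, with TMM scaling, differentiation batch as covariate, no low-count filter and Benjamini-Hochberg adjustment at 0.05. The script was tested on simulated data. Each SE is the absolute log2 change divided by the square root of its F statistic, not a separately fitted standard error. CPM values use the same libraries. Loci sum the REs nearest to a protein-coding start in GENCODE release 44. A promoter RE lies within 1000 bp of any annotated transcript start. The promoter share was compared by an exact sign-flip permutation test over pairs.

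Named REs are the 15 largest changes each way with at least 1 CPM and 1 direction in all 7 pairs (10 for promoters). Named loci are the 15 largest each way with at least 3 REs and 5 CPM, the 5 with most lower or higher REs, and up to 6 members per gene list. List members beyond these, the windows of sequence and single REs of the SOX9 and MSX1 loci were chosen after their values were seen. Some genes are not reported here and were left out of the named REs, loci, lists and figures after ranking. Members and lists were chosen with earlier results of these data known. Paired samples share a clone and differentiation, and their deviations from group means correlated at 0.561 to 0.855 over 76,300 REs. The promoter share was compared over these pairs. The batch covariate joins both R6 pairs, and a fit with the pair as block was an alternative. In replicate R14 of S9CC13, the titles 0 and 0.5 nM carry each other's concentration label, and the titles, which match the SOX9 level, were used. Time-course and WT ratios are log2 within a differentiation with 0.1 CPM added, without a test, and the 3 h samples were set against the 24 h vehicle sample. Replicates are combinations of clone and differentiation, which share 1 cell line. DESeq2 1.42.0, other scalings, a filter, blocks, thinning, left-out pairs and other locus definitions were tried.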

Additional observations from a re-analysis of the deposited data

Results flagged for a closer look

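The total of the 0 nM sample of S9CC47 R8, 64.8 M counts, stood apart from the other 6 controls. By the same measure of isolation, single pairs stood apart at the SORCS1 RE (S9CC13 R10, log2 4.53), the AKR1E2 RE (S9CC47 R5, 2.66), the EFNB1 RE (S9CC47 R6, 2.82) and the TXNDC16 locus (S9CC13 R10, 0.45). Chance would flag about 1 in 20 of the 60 groups examined.

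At the 14 REs described with the largest decreases both WT differentiations moved opposite to all 7 tagged pairs. The mean WT log2 ratio was 0.16 at AGPAT4, 0.31 at SOX10, 0.43 at DIAPH1, 0.28 at CAPN12, 0.25 at TPST1, 0.11 at SLC30A5, 0.15 at ADAMTSL1, 0.19 at PELO, 0.27 at OR6B3, 0.17 at RASL11B, 0.51 at SPATS2L, 0.14 at CRH, 0.39 at GMPR and 0.11 at PLEKHB1. Among the 14 increases described the same held at C4orf33 (-0.29), SORCS1 (-0.23) and MKI67 (-0.22). No WT ratio over all REs stands beside these values, so a general shift of the WT libraries cannot be told apart from one at these REs. These differences between WT and tagged cells were not tested.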

How the results depend on the processing

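DESeq2 called 34,667 REs and 5,136 loci, RLE size factors 36,357 and 4,756, and the low-count filter removed no RE. Without the batch covariate and with no replicate block, 15,104 REs (10,503 lower, 4,601 higher) and 1,225 loci (1,013 lower, 212 higher) were called. With the pair as replicate block, 46,402 REs and 6,436 loci were called, of which 3,014 loci were higher, and with a GC correction added 23,605 REs were higher. Total counts alone gave 3,323 higher loci, and for REs 19,158 lower and 19,625 higher. The S9CC47 pairs alone gave 10,228 higher REs. The cause of these shifts was not tested.

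Leaving out each pair in turn gave 30,219 to 40,009 REs (18,099 to 22,477 lower, 12,120 to 18,401 higher), 3,603 to 5,615 loci (2,089 to 3,086 lower, 1,481 to 2,529 higher) and a promoter share difference of 1.45 to 2.17 percentage points. Unpaired, that difference of 1.79 points had an exact permutation p of 0.387. Within 50 kb of the start SOX6 (0.0163), XYLT1 (0.0128), DCT (-0.0786), the locus STMN2 (-0.0639) and THBS1 (0.14) reversed, and CHADL (0.33) and GFAP (0.0228) reversed with promoter REs left out. No named RE or locus reversed elsewhere, while 130 values of named loci and 1 of a named RE lost significance, 45 of them without the batch covariate.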
